A study of Mus musculus with 6 samples.

Results

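The genes of 8 pluripotency transcription factors (Pou5f1, Nanog, Sox2, Klf4, Esrrb, Zfp42, Tfcp2l1 and Prdm14) were examined in the accessible chromatin of mouse embryonic fibroblasts. Counted for each gene were the accessible intervals that overlapped, by at least 1 bp, its body extended by 50 kb on both sides. This gave 162 of the 323483 intervals of the experiment, with 7 to 33 per gene. The genes were taken by name and not by a measured value. Accessibility was measured by ATAC-seq, in which a transposase cuts and tags DNA that is not packed away.

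The fibroblasts were of the strain M2-rtTA x TetO-Myf6, heterozygous for both alleles, so that doxycycline acts through the M2-rtTA transactivator on a TetO-driven Myf6 transgene, which encodes a muscle regulator. All 3 groups, with 2 libraries each, were kept for 24 h in iMPC medium with 10 ng/mL bFGF: medium alone, doxycycline at 2 µg/mL (Myf6), or the same doxycycline with 5 µM forskolin, 5 µM RepSox and 3 µM CHIR99021 (Myf6 with F/R/C). The design asks how Myf6 and the compounds change accessibility. The positions analysed here form a single set joined over the libraries, with no value per library or group, so groups could not be compared, the values carry no replicate error, and depth is unknown. An interval can come from any group, and accessibility in a few cells and in all cells cannot be told apart.

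In embryonic stem cells Pou5f1 (also called Oct4), Sox2 and Nanog bind together at enhancers and promoters, their own included, and hold the cells in the pluripotent state. Klf4, Esrrb and Tfcp2l1 belong to the same self-sustaining network, Prdm14 protects the naive state and acts in primordial germ cells, and Zfp42 (also called Rex1) is a much used marker of the naive state. Fibroblasts silence most of this network, and forced supply of Pou5f1, Sox2, Klf4 and Myc can reprogram them, while Klf4 and Sox2 also have roles in differentiated tissues and neural progenitors.

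Of the 8 genes, 5 had an interval within 1 kb of the start site: Klf4, Sox2, Esrrb, Tfcp2l1 and Prdm14. Pou5f1, Nanog and Zfp42 had none, and are called the closed genes below. Among 21887 protein-coding genes 72.0% had such an interval, so the members' count was near the background. Over the gene body, 7 of the 8 had an interval against 79.1% of protein-coding genes, and Zfp42 was the exception. Start sites came from RefSeq promoter entries of the build GRCm38.p6, which matched 7 of the 8 genes; for Prdm14 both gene ends were used.

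The 250 bases before the first listed start site are shown for the 2 genes set against the closed genes (Klf4 and Sox2), for Esrrb, which was accessible with few CpG, and for the closed genes. They are from RefSeq on GRCm38.p6, written 5′ to 3′ along transcription. Capitals mark CpG dinucleotides, the octamer core TTTGCAT bound by Pou5f1-type factors (on either strand) and the Sox core ACAATG (on either strand).
Klf4 (chr4:55532476-55532725, minus strand): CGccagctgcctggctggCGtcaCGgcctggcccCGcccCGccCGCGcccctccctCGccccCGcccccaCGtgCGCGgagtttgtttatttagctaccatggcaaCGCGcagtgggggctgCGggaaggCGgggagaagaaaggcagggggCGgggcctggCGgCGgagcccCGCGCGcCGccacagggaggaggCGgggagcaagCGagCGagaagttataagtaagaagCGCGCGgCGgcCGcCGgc
Sox2 (chr3:34649745-34649994, plus strand): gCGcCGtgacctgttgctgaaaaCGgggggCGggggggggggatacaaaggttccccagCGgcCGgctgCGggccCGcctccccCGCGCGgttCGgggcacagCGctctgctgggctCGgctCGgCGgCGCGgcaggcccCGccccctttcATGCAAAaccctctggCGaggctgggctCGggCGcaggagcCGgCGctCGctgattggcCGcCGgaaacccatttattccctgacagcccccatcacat
Esrrb (chr12:86360867-86361116, plus strand): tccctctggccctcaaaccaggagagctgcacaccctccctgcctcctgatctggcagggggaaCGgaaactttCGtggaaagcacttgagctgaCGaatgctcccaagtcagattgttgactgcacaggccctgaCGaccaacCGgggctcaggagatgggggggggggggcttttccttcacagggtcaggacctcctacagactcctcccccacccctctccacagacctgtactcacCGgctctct
Pou5f1 (chr17:35505782-35506031, plus strand): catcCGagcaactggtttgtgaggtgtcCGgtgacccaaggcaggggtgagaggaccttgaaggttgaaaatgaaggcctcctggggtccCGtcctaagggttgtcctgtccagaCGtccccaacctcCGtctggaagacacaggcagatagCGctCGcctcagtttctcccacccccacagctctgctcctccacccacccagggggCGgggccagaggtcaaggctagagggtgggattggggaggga
Nanog (chr6:122707239-122707488, plus strand): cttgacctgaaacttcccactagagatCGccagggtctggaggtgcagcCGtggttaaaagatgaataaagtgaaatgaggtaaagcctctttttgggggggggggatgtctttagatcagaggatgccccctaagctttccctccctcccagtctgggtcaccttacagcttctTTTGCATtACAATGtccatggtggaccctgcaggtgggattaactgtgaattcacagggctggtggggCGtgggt
Zfp42 (chr8:43307010-43307259, minus strand): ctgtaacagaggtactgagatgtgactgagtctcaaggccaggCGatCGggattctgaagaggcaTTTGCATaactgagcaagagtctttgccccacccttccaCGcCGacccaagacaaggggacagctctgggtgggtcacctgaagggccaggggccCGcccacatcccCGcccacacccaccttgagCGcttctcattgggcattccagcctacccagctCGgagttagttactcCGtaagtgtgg

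The sequences differ first in CpG. In the 300 bases from 250 before to 50 after the start site, Klf4 held 40 CpG and Sox2 27, while Zfp42 and Pou5f1 held 11 each and Nanog 4. The observed count over that expected from the C and G content was 0.974 for Klf4 and 0.819 for Sox2, and 0.441, 0.374 and 0.192 for Zfp42, Pou5f1 and Nanog. Over all 17492 protein-coding genes with a listed start site the median was 13 CpG and a ratio of 0.577. Promoters with an interval within 1 kb had a median ratio of 0.728, and those without had 0.162.

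All promoters were then divided by this ratio into 10 classes of like size. A class gives a share of start sites with an interval and not an outcome for each gene. Klf4 and Sox2 lay in classes 9 and 8, where 97.1% and 96.0% of start sites had an interval, and Tfcp2l1 (ratio 0.656, 21 CpG) lay in class 6, with 93.3%. Zfp42 lay in class 5, where 81.8% had an interval, and was closed. Pou5f1 lay in class 4, with 59.8%, and was closed too. Esrrb, with 7 CpG and a ratio of 0.266, shared class 3 with Nanog (41.2%), and Esrrb was accessible where Nanog was not.

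**Figure D1:**
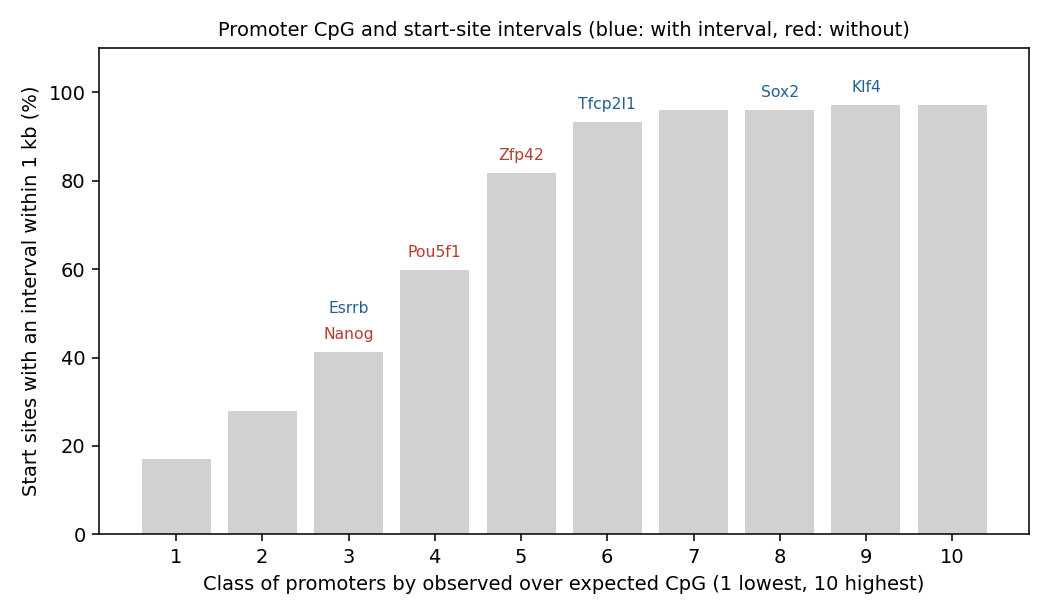
Share of start sites with an interval within 1 kb (vertical axis, percent) in each of 10 classes of 17492 promoters by observed over expected CpG (horizontal axis, 1 the lowest); names mark the class of each member, blue with an interval and red without. The share rises from 17.0% in class 1 to 97.2% in class 10; Nanog and Esrrb share class 3 and differ, and Zfp42 is closed in a class where 81.8% have an interval.

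Letters of binding motifs were searched in the same 300 bases on both strands. Nanog held the octamer core TTTGCAT from 75 to 69 bases before its start site and the Sox core ACAATG from 67 to 62, with 1 base between them, the arrangement known for joint binding of Pou5f1 and Sox2. Zfp42 held the octamer core from 185 to 179 bases before its start site, and Sox2 held it on the opposite strand from 99 to 93. These 3 of 7 members compare with 4.17% of all promoters for the octamer core, and the Sox core was in 11.2% of all promoters. Esrrb had the Sox core only after its start site. The GC box GGGCGG, a site of Sp and Klf factors found in 46.3% of promoters, occurred 4 times in Klf4, 2 times in each of Sox2 and Zfp42 and 1 time in Pou5f1. The TATA box TATAAA (13.3% of promoters) was found in Tfcp2l1, from 28 to 23 bases before the start site. The E-box CAGCTG, of the type bound by myogenic factors (15.1%), was found in Klf4, and the AP-1 letters TGANTCA (7.03%) in none of the 7. These are matches of letters in a 300-base window and not measured sites.

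Klf4, a zinc-finger factor, had an accessible start region of several pieces. The gene lies on chromosome 4 from 55527137 to 55532475 (gene ID 16600, minus strand). An interval of 1276 bp (55532236 to 55533511) spanned its start site and covered the whole promoter sequence shown, and a second of 643 bp (55531154 to 55531796) lay 679 bp into the gene. Another, of 558 bp, lay within the gene as well, so that 27.0% of the gene body was covered, above 92.6% of protein-coding genes. The window held 21 intervals, 10 upstream and 8 downstream of the gene. Upstream, 5 of them followed closely at 30108 to 32216 bp from the start site, the widest of 578 bp (55563075 to 55563652). Downstream, 2 intervals of over 1 kb lay at 42805 bp (1084 bp) and 51265 bp (1101 bp) from the start site. No other protein-coding gene reached into the Klf4 window.

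Sox2, an HMG-box factor of pluripotent and neural cells, had the widest start interval of the 8 genes. The gene (chromosome 3, 34649995 to 34652461, gene ID 20674, plus strand) is short, and an interval of 2076 bp (34649288 to 34651363) spanned its start site, wider than 93.0% of the widest start-site intervals of other genes. It covered 55.5% of the gene, above 98.3% of protein-coding genes. A second interval, of 266 bp, ended 886 bp upstream. The widest interval of all member windows, 2135 bp (34663361 to 34665495), began 13366 bp downstream of the Sox2 start site. Of the 18 intervals, 15 overlapped Sox2ot, the long non-coding gene within which Sox2 lies, and no other protein-coding gene reached into the window. Enhancers of Sox2 are known on both sides of the gene; whether these intervals are such elements was not tested.

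Esrrb, an orphan nuclear receptor, is the longest of the genes (160512 bp, chromosome 12, 86361117 to 86521628, gene ID 26380) and 27 of its 33 intervals lay over the gene body. RefSeq lists 2 start sites, at 86361117 and 86421644, and both were covered. The interval at the first was 706 bp wide (86360900 to 86361605), narrower than those of most genes that had any (15.2 percentile). That at the second, 1568 bp (86421308 to 86422875), was the widest of the Esrrb window, and the promoter there held 7 CpG as well. Outside the gene the window was sparse, with 4 intervals upstream and 2 downstream.

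Tfcp2l1, of the CP2 family of transcription factors (chromosome 1, 118627923 to 118685168, gene ID 81879), had a single start-site interval of 1146 bp (118627626 to 118628771), its widest. Within the body it had 7 intervals, the widest of the others 938 bp (118649997 to 118650934). Of its 26 intervals, 10 lay upstream, 6 of these over the neighbouring Clasp1, which encodes a microtubule protein.

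Prdm14, a PR-domain zinc-finger regulator (chromosome 1, 13113428 to 13127163, gene ID 383491), had a dense row of intervals at its upper end. An interval of 1380 bp (13126295 to 13127674) spanned that end, another of 1023 bp (13127892 to 13128914) followed 729 bp beyond it, and 882 bp (13125122 to 13126003) lay just inside the gene. No interval lay within 1 kb of its lower end. Within 10 kb of the gene, 7 interval midpoints gave 35.0 per 100 kb, at the 89.5 percentile of protein-coding genes. Of the 19 intervals in the window, 7 lay over Ncoa2, a nuclear receptor coactivator gene.

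**Figure D2:**
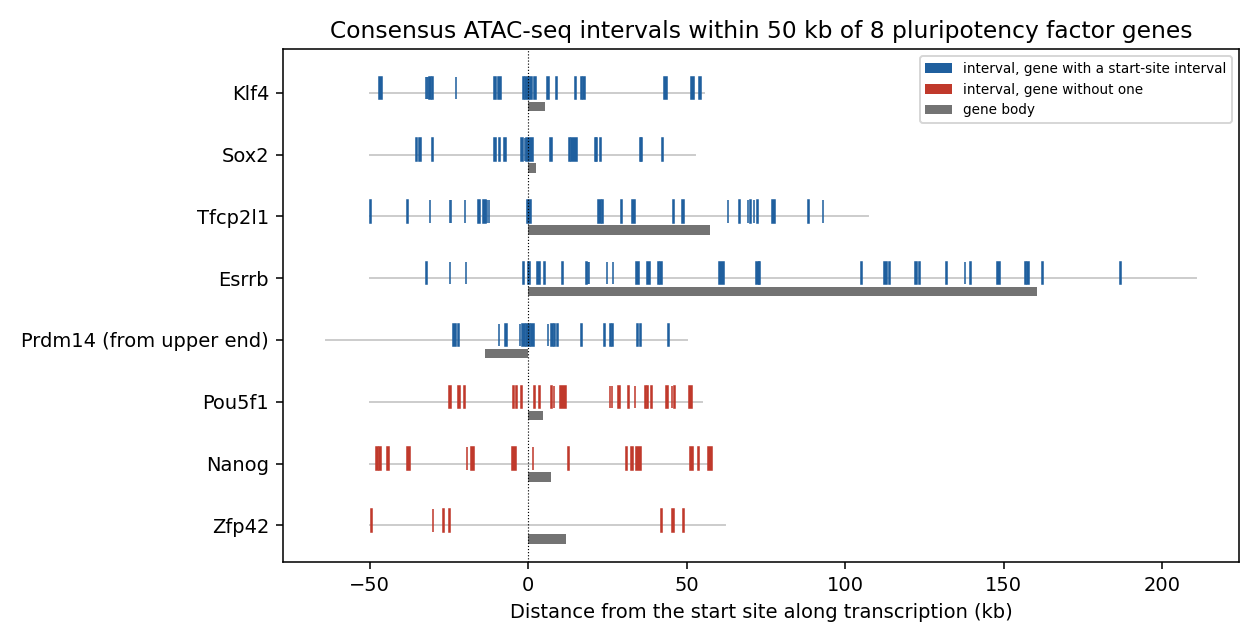
Position of all 162 intervals (coloured bars, with a thin outline so that narrow ones are visible) in kb from the first listed start site along transcription, or for Prdm14 from its upper end by coordinate; dark grey bars are gene bodies and thin lines the windows of 50 kb on each side. Intervals lie on the dotted line for the 5 genes in blue and not for Pou5f1, Nanog and Zfp42 in red, and Zfp42 has none over its body.

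Pou5f1, the POU-domain factor at the centre of the network, had no interval at its first start site although its surroundings were well covered. The gene lies on chromosome 17 from 35506032 to 35510777 (gene ID 18999, plus strand), and the start site sat in a stretch of 3767 bp without intervals (35503938 to 35507704). Upstream, narrow intervals of 106, 286 and 147 bp ended 2095, 3457 and 4571 bp before the start site. Inside the gene, intervals of 463 bp (35507705 to 35508167) and 429 bp (35509343 to 35509771) lay 1673 and 3311 bp after it and covered 18.8% of the body. RefSeq lists a second start site inside the gene, at 35508807, with both of these intervals within 1 kb; with any listed start site counted, 6 of the 8 genes had an interval. The promoter sequence at neither start site was covered at any base.

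Much of the Pou5f1 window belonged to its neighbours. Of its 23 intervals, 13 lay over or within 1 kb of an end of Tcf19, Cchcr1, Psors1c2 or Cdsn, all downstream. The widest, 1899 bp (35516109 to 35518007), spanned the facing ends of Tcf19 and Cchcr1, 10077 bp from the Pou5f1 start site. On the other side the MHC class I gene H2-Q10 had no interval over it, and below the window the next interval was 96519 bp from its edge. Genes of that family are close copies of each other, and the sources used here do not say how reads with several map positions were treated.

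Nanog, a homeobox factor, showed wide intervals around a bare start site. The gene (chromosome 6, 122707489 to 122714633, gene ID 71950, plus strand) had its start site in a stretch of 5438 bp without intervals (122703500 to 122708937). An interval of 1153 bp (122702347 to 122703499) ended 3990 bp upstream, and a narrow one of 179 bp (122708938 to 122709116), the only interval in the gene, began 1449 bp downstream. Further upstream lay intervals of 1004 bp (17217 bp from the start site) and 1052 bp (37191 bp), and a group of 639, 487 and 667 bp between 44050 and 47304 bp. Downstream, 6 of 7 intervals lay over Slc2a3, a glucose transporter gene, with 1475 bp (122741618 to 122743092) the widest. With 5 intervals of at least 1 kb, Nanog had the most of the 8 genes, and its median width of 639 bp compares with 336 bp over all intervals. Enhancers on both sides of Nanog are known in embryonic stem cells; whether these intervals are those elements was not tested.

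Zfp42, a zinc-finger gene, was bare over its whole length. The gene (chromosome 8, 43295067 to 43307009, gene ID 22702, minus strand) lay inside a stretch of 66490 bp without intervals (43265231 to 43331720). Of start sites with a listed position, 16.0% lay in a stretch of at least 50 kb without intervals, and of the members Zfp42 alone did. The nearest interval, 309 bp (43331721 to 43332029), was 24712 bp upstream. Only 7 intervals lay in the window, 171 to 548 bp wide, and covered 1.91% of it, at the 16.7 percentile of protein-coding genes. No other protein-coding gene lay in the window.

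Pseudogene copies of the members were looked up after the data were seen. In RefSeq, 7 copies of Pou5f1 were found (Gm2071 and Gm21054 among them), 2 of Nanog and 1 of Zfp42. For the other 5 members none was found. The copies were 394 to 1665 bp long, and an interval overlapped Zfp42-ps1 and none of the other 9. The stretches without intervals at the start sites of Pou5f1, Nanog and Zfp42 were 3767, 5438 and 66490 bp long. Reads from a gene and its copy can be confounded, and the part of this in the missing intervals was not tested.

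Set side by side, the windows of the 8 genes were ordinary in density, with Zfp42 the sparsest. Per 100 kb, Pou5f1 held 22.0 intervals, Klf4 19.9, Sox2 17.6, Prdm14 16.7, Tfcp2l1 16.5, Nanog 14.0, Esrrb 12.7 and Zfp42 6.25. The median of the members was 16.6, against 18.0 over protein-coding genes (quartiles 9.63 and 24.3). Of the members, 7 lay between these quartiles and Zfp42 below them, at the 19.0 percentile. With no value per library, neighbours in this order cannot be separated. By the share of the window covered, the order was Klf4 (10.7%), Sox2 (9.88%), Pou5f1 (9.67%), Nanog (8.93%), Prdm14 (7.94%), Tfcp2l1 (6.46%), Esrrb (5.73%) and Zfp42 (1.91%), with a median of 8.86% over protein-coding genes. Widths were ordinary as well, with a median of 342 bp over the 162 intervals, and 10.5% of them reached 1 kb against 8.71% of all intervals.

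**Figure D3:**
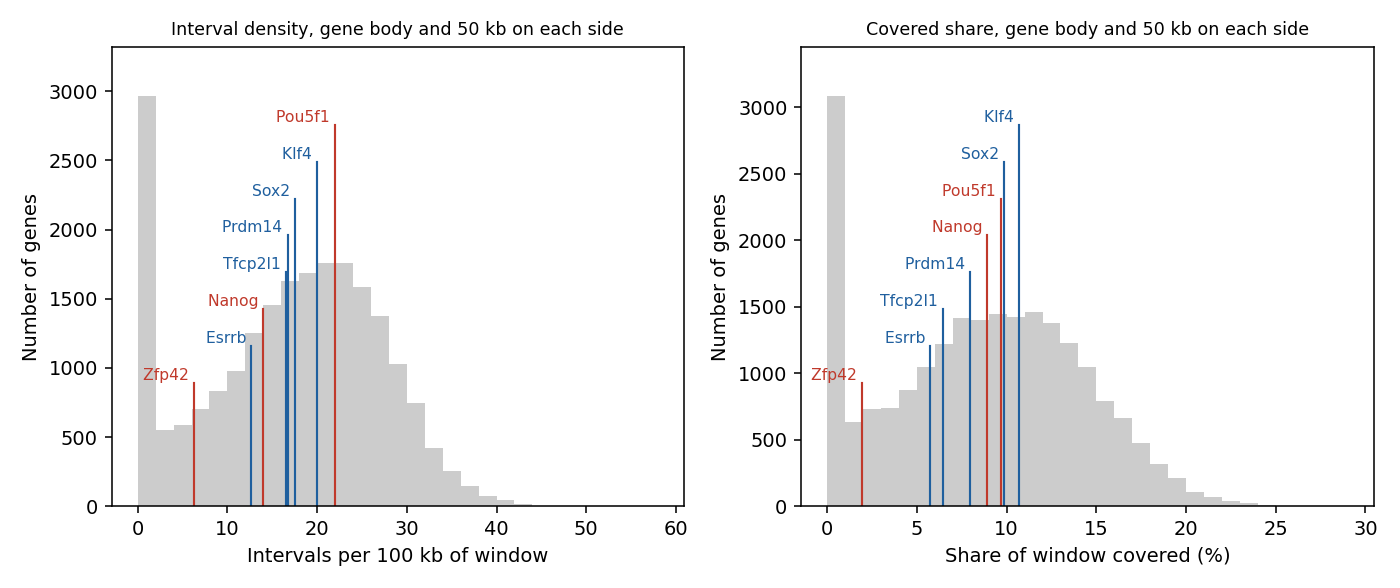
Number of protein-coding genes (grey bars, n = 21887) by intervals per 100 kb of the gene body and 50 kb on each side (left) and by the share of that window covered in percent (right); vertical lines mark the 8 members, blue with a start-site interval and red without, and their heights carry no value. Zfp42 is the lowest of the members at 6.25 per 100 kb and 1.91%, while Pou5f1 at 22.0 per 100 kb lies to the right of Klf4 at 19.9.

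The question of how Klf4 and Sox2 compare with the closed genes was then asked away from the start site, leaving out the 1 kb on either side that had defined closed. Klf4 held 18.4 and Sox2 15.9 intervals per 100 kb, against 22.4 in Pou5f1, 14.3 in Nanog and 6.37 in Zfp42. The values overlapped, with Pou5f1 above both and Nanog and Zfp42 below both. The median of Klf4 and Sox2 was 1.20 times that of the closed genes, and this direction turned when the share covered was used (0.923 times), when the window was widened to 100 kb on each side (0.969 times) or when intervals under 300 bp were left out (0.937 times). With 10 kb on each side it was 1.90 times. Without intervals within 1 kb of an end of another protein-coding gene, Pou5f1 stood below both, at 14.6 per 100 kb, and the other 4 values did not move. The genes are not replicates of a state, and no test was made.

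Farther out, the neighbourhoods went different ways. Between 100 and 200 kb from the gene, Klf4 held 56 interval midpoints (28.0 per 100 kb, 92.1 percentile) and Sox2 35 (17.5 per 100 kb, 51.7 percentile). In the same band Pou5f1 held 39, Nanog 40 and Zfp42 9. Between 200 and 500 kb Pou5f1 held 28.8 per 100 kb (97.7 percentile), while Sox2 held 8.50 and Nanog 6.67, both under the lower quartile of 10.0. Zfp42 was low in the 3 bands beyond 50 kb, with 3.00, 4.50 and 1.33 per 100 kb.

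**Figure D4:**
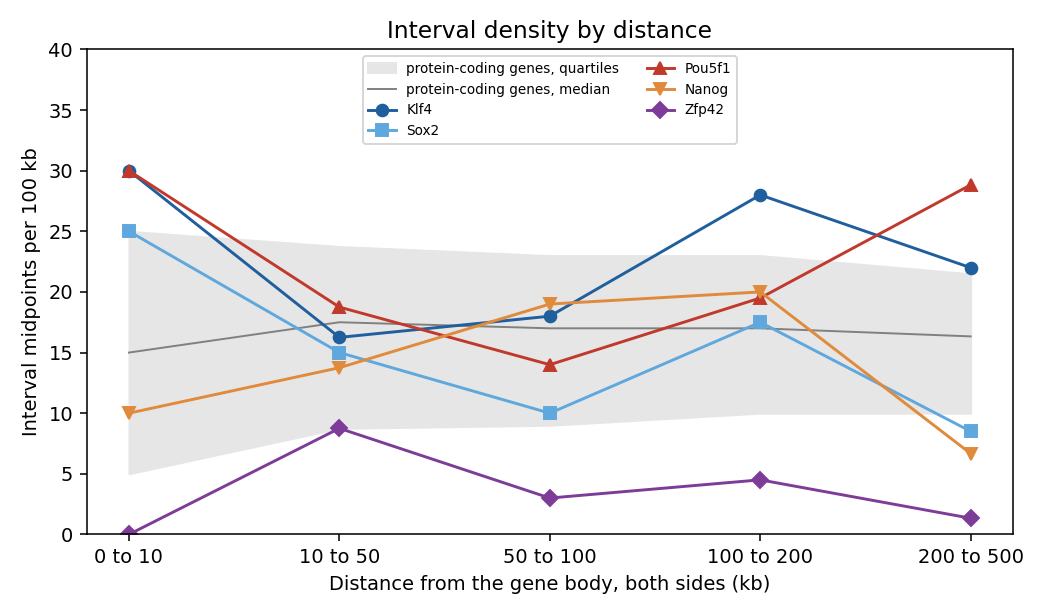
Interval midpoints per 100 kb (vertical axis) in 5 bands of distance from the gene body, both sides together (horizontal axis, kb), for Klf4, Sox2 and the 3 closed genes; the grey line and area are the median and quartiles of protein-coding genes, and lines only join the bands of a gene. Pou5f1 and Klf4 both stand at 30.0 within 10 kb, and Zfp42 at 0.

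Klf4 and Sox2 were not unusual in their own gene families. Of 17 Klf genes, 15 had a start-site interval, against 72.0% of protein-coding genes, and Klf12 and Klf17 had none. Klf5, Klf10, Klf14 and Klf16 have no listed start site and were counted at either gene end. Klf4 came eighth by density, where Klf6 (34.0 per 100 kb), Klf10 (30.2) and Klf2 (26.3) led, and its start-site interval of 1276 bp was near the family median of 1251 bp. All 19 Sox genes had such an interval, counted at either gene end for Sox3, Sox7, Sox9, Sox10, Sox17 and Sox18. Sox2 came eleventh by density, where Sox10 (35.6 per 100 kb), Sox12 (31.6) and Sox7 (29.0) led, and its interval of 2076 bp was above the family median of 1436 bp. Sox1 and Sox3, which with Sox2 form the SoxB1 subgroup, had intervals of 1436 bp at the start site and 1154 bp at a gene end.

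**Figure D5:**
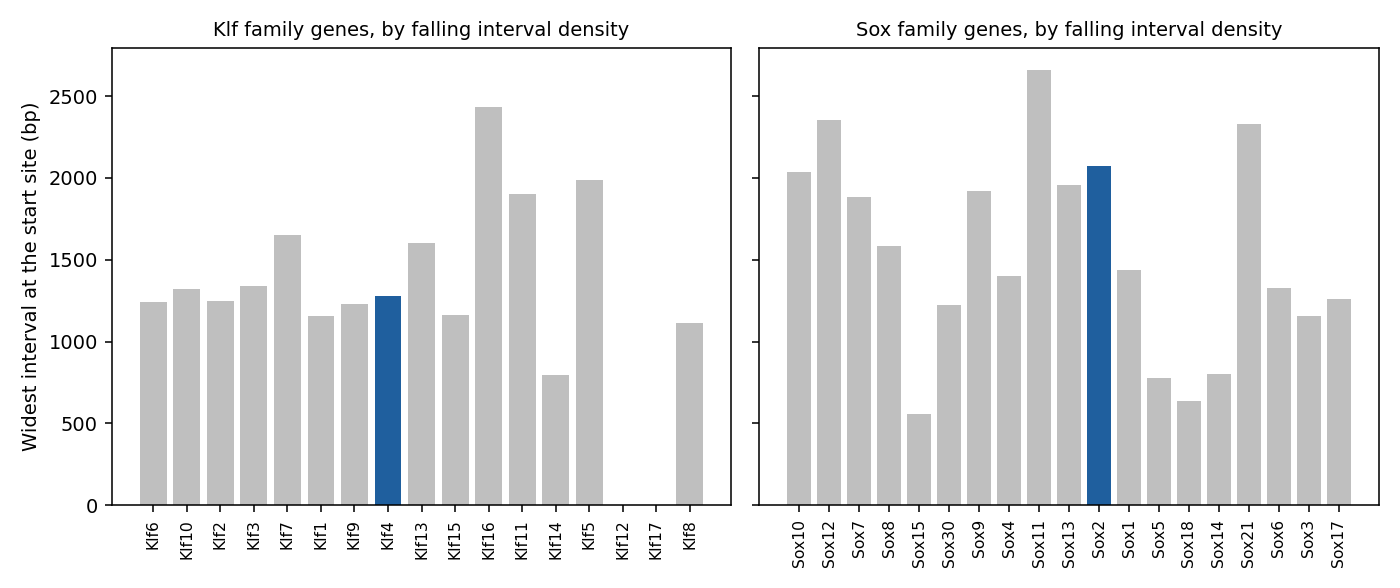
Width of the widest interval within 1 kb of the start site (vertical axis, bp) for the Klf genes (left) and the Sox genes (right), ordered by falling interval density. Klf4 and Sox2 are in blue, and a missing bar means no such interval. Either gene end was used where no start site is listed. All Sox genes have a bar, Klf12 and Klf17 have none, and Sox2 at 2076 bp stands above its family's median of 1436 bp.

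Of 28 other genes of the pluripotent state, 20 had a start-site interval, and this share of 71.4% was near that of protein-coding genes in general (72.0%), with a median density of 16.6 per 100 kb. Highest were Lefty1 (31.0) and Lefty2 (28.3), which encode Nodal antagonists, and the T-box gene Tbx3 (28.0). Lefty1 and Lefty2 are close neighbours, as are Dppa2 and Dppa4, so that the windows of each pair overlap and their densities are not independent. The windows of Gdf3 and Dppa3 also overlap each other and that of Nanog, so the densities of these genes are not independent either. No start-site interval was found at Nr5a2, Dnmt3l, Tcl1, Dppa2, Dppa4, Dppa5a, Gdf3 and Nr0b1. Gdf3 and Dppa5a had 20.1 and 20.8 intervals per 100 kb around them, while Tcl1 (3.77), Dppa4 (3.62) and Dppa2 (5.49) were sparse. Nr0b1, an X-linked orphan nuclear receptor gene, had no interval in its window and lay in a stretch of 492406 bp without any.

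Marker genes of several cell types were examined in the same way. For genes with no listed start site either gene end counted. Of the fibroblast markers these were Fn1, Pdgfrb, Col1a1, Thy1, Dcn and Lum. Of the other markers they were Csf1r, Spi1, Adgre1, Cdh5, Pecam1, Cdh1, Esrp1 and Dppa3. All 15 fibroblast markers had a start-site interval, against 72.0% of protein-coding genes, a count that alone does not identify the cells. Their densities ran from 17.6 per 100 kb at Twist1 to 41.1 at Fn1, which encodes fibronectin, with S100a4 (36.2) and Twist2 (35.5) next. The median was 31.4. Postn (21.2), Dcn (20.9), Lum (20.5), Pdgfra (20.4), Col3a1 (20.3) and Twist1 lay below Pou5f1 at 22.0, so the ranges of markers and members overlapped. The windows of Dcn and Lum overlap, so their densities are not independent. A start-site interval was also present at 3 of 5 macrophage and blood markers (Csf1r, Cd68 and Spi1, not Ptprc and Adgre1). It was present at 2 of 4 endothelial markers (Cdh5 and Kdr, not Pecam1 and Emcn). Among epithelial markers 3 of 4 had it (Cdh1, Epcam and Esrp1, not Krt5), and among germ cell markers 3 of 4 (Prdm1, Dppa3 and Dazl, not Ddx4). The widest at an end of Csf1r was 312 bp, and the windows of Csf1r and Pdgfrb overlap. Dppa3, with 148 bp at a gene end, is also counted among the other pluripotency genes above. The part of other cell types in the member intervals was not tested, and expression was not measured.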

How the data were processed

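ATAC-seq was run on 6 libraries in 3 groups of 2, amplified for 12 cycles, per the labels' protocols; separate cultures within a group are not stated there. The tools BWA, MACS2 and DESeq2 and the build GRCm38.p6 are listed, without roles or versions, per the submitters' processing notes. Per the file headers, HOMER's annotatePeaks was run on consensus peaks with the GENCODE vM23 annotation. Peak threshold and pooling are not given in the sources used here. Positions in the deposited table are 1-based; its score is 0 in each line and was not used.

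Gene positions and promoter sequences were those of RefSeq for GRCm38.p6. Of 21887 protein-coding genes on the numbered and sex chromosomes, 17492 had a start site (the first along transcription was used); for the other 4395 both gene ends were. A percentile is the share of protein-coding genes with a lower value, ties counted in part. All 8 genes are named, with neighbours in their windows; of the Klf, Sox and other pluripotency genes, those without a start-site interval and the 3 densest; of the marker lists, those without a start-site interval; and of each gene the widest, start-site and nearest intervals. Sox1, Sox3, Gdf3, Dppa5a, Dppa2, Dppa4, Tcl1 and the other marker genes were given values or names after the data were seen, as were the pseudogene copies and distance bands. The members and lists were chosen with earlier results of these data known. Interval counting was tested on simulated data. Alternatives covered start-site distance, window, interval width, covered share and the choice of start site. Python 3.11.15, numpy 2.4.6, pandas 2.3.3 and matplotlib 3.10.9 were used.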

Additional observations from a re-analysis of the deposited data

How the results depend on the processing

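Of the 8 genes, 5 had a start-site interval at distances of 0.5 and 1 kb, at either gene end, and with minimum widths of 300 and 600 bp; 7 had at 5 kb and, with any listed start site (added after the data were seen), 6 had. The members' median of 16.6 intervals per 100 kb fell to 9.72 and 4.34 with minimum widths of 300 and 600 bp, by construction since fewer intervals count, and was 21.4 and 15.9 with 10 and 100 kb on each side. The ratio of Klf4 and Sox2 to the closed genes away from the start site, 1.20, was 1.90 with 10 kb on each side, 0.969 with 100 kb, 0.937 and 1.00 with intervals of at least 300 and 600 bp, and 0.923 by the share covered; the cause was not tested. With Pou5f1 not counted as closed, by its second start site, it was 1.66. The ratio of their promoter CpG values, 2.40, was 2.66 over the 250 bases before the start site and 2.35 over all listed start sites. No paired analysis was possible because the table carries no value per library and no test was made. Depth is unknown, so a missing interval may be one not detectable at this depth.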

Other observations

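Germ cell genes, which share regulators with the pluripotent state, showed a mixed picture in the same intervals. Prdm1, a repressor that acts with Prdm14 in germ cell specification, held 39 intervals in its window (20.4 per 100 kb) and a start-site interval of 704 bp. Dazl, an RNA-binding protein gene of germ cells, held 9 (7.88 per 100 kb) with a start-site interval of 703 bp, and Ddx4 held 21 (13.6 per 100 kb) with none at the start site. Dppa3, a maternal-effect gene, had an interval of 148 bp at a gene end and 16.4 intervals per 100 kb.

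Intervals lay on both sides of the 50 kb edge. Over the 16 window edges, the outermost interval inside lay at a median of 7786.5 bp from the edge (range 0 to 40018 bp) and the next outside at 8703 bp (range 1317 to 96519 bp, widths 115 to 1083 bp). Beyond the windows of the other accessible genes, Esrrb held 28.7 midpoints per 100 kb between 200 and 500 kb (97.5 percentile), Tfcp2l1 20.2 (69.0 percentile) and Prdm14 15.5 (45.8 percentile).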
